A study of Gallus gallus with 24 samples.

Results

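The stress axis genes described here are 8 of the 16779 genes of a hypothalamic RNA-seq table from broiler chickens. They were chosen by symbol and are AVP, CRH, CRHR1, CRHR2, AVPR1A, NR3C1, NR3C2 and FKBP5. Of these, 7 rows carried the symbol as their name. The FKBP5 row was named FKBP51 in the table and was matched by its NCBI gene number. All 8 passed the filter on low counts that left 13742 genes for testing.

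In vertebrates, corticotropin-releasing hormone (CRH) and the avian form of vasopressin, vasotocin (encoded by AVP), are made by neurons of the paraventricular nucleus and drive the pituitary to release adrenocorticotropic hormone. The adrenal gland answers with corticosterone, which acts back on the brain through the glucocorticoid receptor (NR3C1) and the mineralocorticoid receptor (NR3C2). FKBP5 is a co-chaperone that, in mammals, is switched on by glucocorticoids and lowers the receptor's affinity for its hormone. Vasotocin is also the antidiuretic hormone of birds, and heat exposure is a classical activator of the axis.

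Hypothalamus was collected on day 42 from 24 Ross 308 broilers, and 1 library was made per bird. Feed was either basal or supplemented with 1% L-citrulline, and each diet was given at 24 °C and at 35 °C, which makes 4 groups of 6 birds. L-citrulline is an amino acid that the body converts to arginine, the precursor of nitric oxide. The temperatures applied from day 28 at 60% relative humidity, and each bird came from a different replicate of 12 chickens. The number of climate chambers per temperature is not stated, so temperature and chamber cannot be told apart.

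Libraries held 12635239 to 15001037 counts. Of 18 listed hypothalamic region markers, 17 had a row and all 17 passed the filter. The anterior pituitary list summed to between 6.42 and 11.1 CPM in every bird, with PRL, FSHB and PITX1 under 1 CPM in all of them. Bird 3 of the L-citrulline 35 °C group stood apart in cell composition: its oligodendrocyte markers summed to 15812 CPM, against a group median of 46877 CPM. A further 3 libraries stood apart by TTR, the transthyretin gene of the choroid plexus: bird 6 of the basal 24 °C group with 1707 CPM and birds 1 and 5 of the L-citrulline 24 °C group with 1468 and 1966 CPM, against at most 164 CPM in the others. That bird 5 was also the lowest of its group for AVP and AVPR1A and the second highest for FKBP5. Fits without these 3 libraries, and without all 4, were chosen after seeing the data, and no member passed in them. Values without these libraries are given for a selection of the printed effects, so an effect printed without them is not thereby stable. Genes on chromosome W, which hens carry and cocks lack, split the birds into 12 with a mean log2 CPM of 4.04 to 4.30 and 12 with -2.52 to -2.06. The high set held 2 birds of each basal group and 4 of each L-citrulline group, so diet and W-linked counts are partly confounded. Levels below are CPM, read counts scaled to a common library size after TMM normalization, given as mean ± SD over the 6 birds of a group unless stated otherwise. In this bulk tissue, fewer cells of a type and less RNA per cell cannot be told apart.

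Levels of different genes were compared as FPKM, which divides by gene length. AVP was by far the most abundant of the 8, with a mean of 4520 FPKM over the 24 birds and place 7 among all genes of the table. It took between 0.0629% and 0.652% of a library's counts. FKBP5 followed with a mean of 53.0 FPKM and CRH with 33.2 FPKM, and FKBP5 was above CRH in 17 of 24 birds only. The mineralocorticoid receptor NR3C2 had 9.19 FPKM and the CRH receptor CRHR1 8.67 FPKM, an order seen in 14 of 24 birds, so these neighbours did not differ beyond their spread. CRHR2 had 5.39 FPKM, below CRHR1 in 23 of 24 birds. This order rests on the annotated lengths, 2709 bases for CRHR2 and 1421 for CRHR1, as the mean CPM were 14.6 and 12.3. NR3C1 had 4.38 FPKM and the vasotocin receptor AVPR1A was lowest with 3.62 FPKM, NR3C1 being above AVPR1A in 18 of 24 birds.

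Ratios within birds showed how fixed these proportions were. NR3C2 exceeded NR3C1 in every bird, with a ratio of FPKM between 1.502 and 2.96 and a median of 2.07. The ratio of CRHR2 to CRHR1 ran from 0.339 to 1.01 with a median of 0.596. The ratio of AVP to CRH was the loosest, from 19.9 to 1063 with a median of 140.

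**Figure D1:**
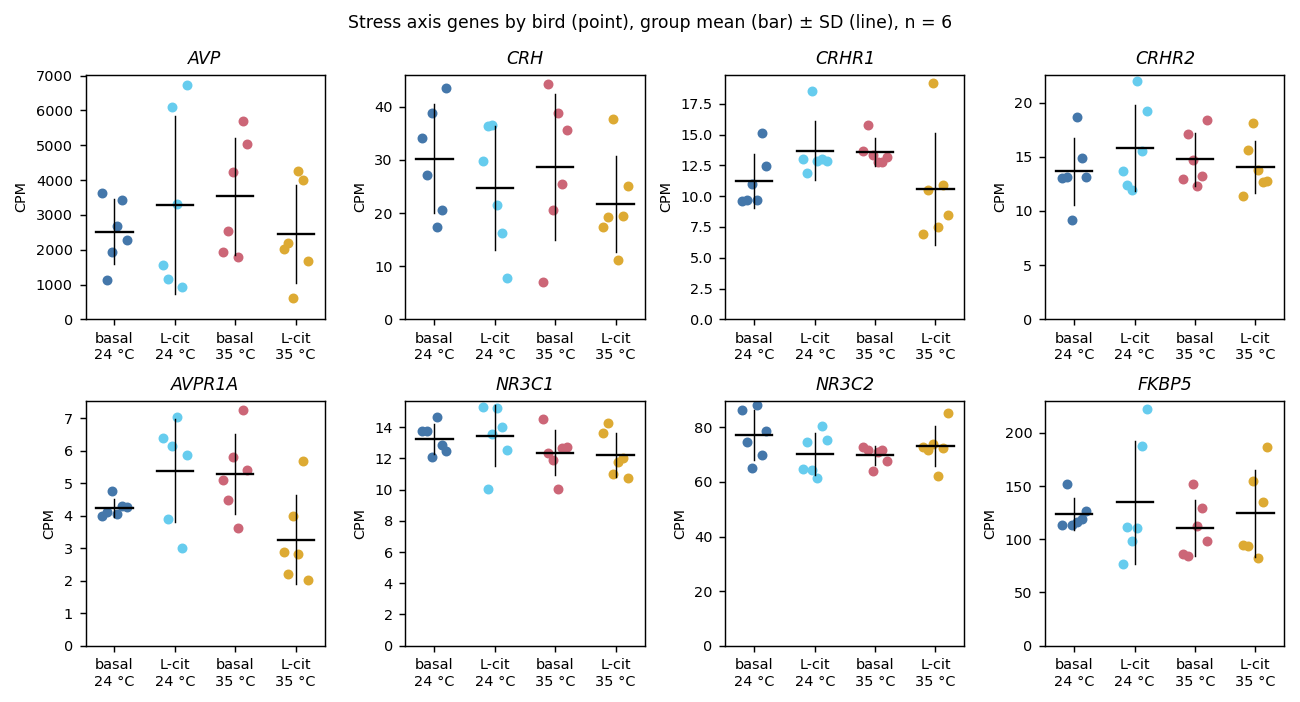
CPM of the 8 stress axis genes in each of 24 birds (points) for the 4 groups, with the group mean (bar) and SD (line) of 6 birds; each panel has its own axis from 0. AVP ranged from 616 to 6724 CPM, whereas NR3C2 stayed between 61.5 and 88.4 CPM, and every panel shows groups that overlap.

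No member passed an adjusted p of 0.05 in any of 7 comparisons by edgeR's quasi-likelihood test with Benjamini-Hochberg adjustment over 13742 genes. In each of them, 0% of all genes passed (0 of 13742). At an unadjusted p under 0.05, the share of all genes was 3.69% for heat on the basal diet, 6.71% for heat on the L-citrulline diet, 6.97% for L-citrulline at 24 °C and 6.43% for L-citrulline at 35 °C. It was 7.56% for the interaction of heat and L-citrulline, 3.03% for heat averaged over diets and 5.48% for L-citrulline averaged over temperatures. Of the 8 members, 0 had an unadjusted p under 0.05 for heat on the basal diet and 0 for L-citrulline at 24 °C. AVPR1A alone did for heat on the L-citrulline diet and for L-citrulline at 35 °C, comparisons that share the L-citrulline 35 °C birds. AVPR1A and CRHR1 did for the interaction, and no member did for either averaged effect.

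AVP (ENSGALG00000014117; chromosome 4, 88653691 to 88655304, minus strand, GRCg6a) encodes vasotocin. In birds on the basal diet at 24 °C it had 3618, 1141, 1936, 2672, 3435 and 2270 CPM. On L-citrulline at 24 °C the values were 1564, 1146, 6086, 3310, 917 and 6724 CPM. On the basal diet at 35 °C they were 1944, 2527, 4243, 1780, 5682 and 5049 CPM, and on L-citrulline at 35 °C 2020, 2181, 616, 4248, 3990 and 1664 CPM. The groups overlapped over most of their range, and the L-citrulline 24 °C group held both the highest bird of the study and the second lowest. L-citrulline at 35 °C gave a log2 fold change of -0.53 ± 0.48 (SE), with a 95% interval from -1.51 to 0.45 (edgeR adjusted p = 0.815). Without bird 3 of the L-citrulline 35 °C group this was -0.33, and without bird 4 of that group -0.76. Heat on the basal diet gave 0.49 ± 0.48 (SE; edgeR adjusted p = 1.00 after rounding), and 0.31 without bird 5 of the basal 35 °C group. For L-citrulline at 24 °C the group means gave 0.39 ± 0.48 (SE), while the difference of mean log2 values was 0.07. Leaving out bird 6 of the L-citrulline 24 °C group brought that fitted value to 0.05, and leaving out bird 3 to 0.12. Without the 3 libraries high in TTR it was 0.75 ± 0.51 (SE; edgeR adjusted p = 0.909).

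CRH (ENSGALG00000037148; chromosome 2, 115011152 to 115012145, minus strand) had 34.0, 27.1, 38.8, 17.4, 20.6 and 43.5 CPM on the basal diet at 24 °C. With L-citrulline at 24 °C it had 29.8, 36.4, 36.6, 21.5, 16.3 and 7.72 CPM. The 35 °C birds had 7.05, 44.2, 20.7, 38.9, 25.4 and 35.6 CPM on the basal diet and 17.4, 19.3, 37.7, 11.2, 19.5 and 25.1 CPM on L-citrulline. All groups overlapped, the lowest and the highest bird of the study both being on the basal diet at 35 °C. Both L-citrulline means were below the basal mean of the same temperature (24.7 ± 11.6 against 30.2 ± 10.3 CPM at 24 °C, 21.7 ± 9.04 against 28.7 ± 13.7 CPM at 35 °C). The averaged L-citrulline effect was a log2 fold change of -0.34 ± 0.26 (SE), with a 95% interval from -0.89 to 0.20 (edgeR adjusted p = 0.796). With the oligodendrocyte marker score as a covariate this was -0.21 ± 0.23 (SE), and without bird 3 of the L-citrulline 35 °C group -0.46 ± 0.26 (SE). Heat gave -0.08 ± 0.37 (SE) on the basal diet and -0.19 ± 0.37 (SE) on L-citrulline. Both heat values rest on single birds. Leaving out 1 bird at a time moved the first between -0.24 and 0.13 (without birds 2 and 1 of the basal 35 °C group) and the second between -0.42 (without bird 3 of the L-citrulline 35 °C group) and -0.04 (without bird 3 of the L-citrulline 24 °C group).

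The tagwise coefficient of biological variation, edgeR's estimate of the relative SD between birds of a group beyond counting noise, was 0.554 for AVP and 0.442 for CRH. These were at percentiles 97.6 and 95.2 of all tested genes. The same measure was 0.218 for CRHR1, 0.194 for CRHR2, 0.249 for AVPR1A, 0.274 for FKBP5, 0.113 for NR3C1 and 0.100 for NR3C2. In that order, the percentiles were 74.9, 69.8, 79.9, 83.4, 39.4 and 30.2.

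The receptors varied less than AVP and CRH. CRHR1 (ENSGALG00000000371; chromosome 27, 4646659 to 4670553, plus strand) is the receptor through which CRH stimulates pituitary corticotropes in mammals. It had 9.58, 9.68, 11.03, 9.71, 15.1 and 12.4 CPM on the basal diet at 24 °C and 13.02, 11.9, 18.5, 12.9, 13.04 and 12.9 CPM with L-citrulline at 24 °C. At 35 °C it had 13.7, 15.8, 13.3, 12.8, 12.8 and 13.2 CPM on the basal diet and 6.93, 10.5, 19.2, 7.52, 10.9 and 8.50 CPM with L-citrulline. Apart from bird 3, every bird of the L-citrulline 35 °C group was below every bird of the basal 35 °C and L-citrulline 24 °C groups, and bird 3 was the highest of the study. The log2 fold change was 0.27 ± 0.18 (SE) for heat on the basal diet and -0.37 ± 0.18 (SE) for heat on L-citrulline, and L-citrulline at 35 °C gave -0.36 ± 0.18 (SE). The interaction, which is the difference between these effects, was -0.65 ± 0.26 (SE; edgeR adjusted p = 0.617). Without bird 3 of the L-citrulline 35 °C group, heat on L-citrulline gave -0.63 ± 0.14 (SE; edgeR adjusted p = 0.174), L-citrulline at 35 °C -0.62 ± 0.14 (adjusted p = 0.138) and the interaction -0.90 ± 0.19 (adjusted p = 0.202). Without all 4 libraries that stood apart the interaction was -0.98 ± 0.22 (SE; edgeR adjusted p = 0.201). None of these passed, and 0.138 was the lowest adjusted p of any member under any setting tried. That bird also had the lowest oligodendrocyte score of the study, and with that score as a covariate and the bird kept, heat on L-citrulline gave -0.43 ± 0.14 (SE) and the interaction -0.67 ± 0.19 (SE; edgeR adjusted p = 0.298).

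CRHR2 (ENSGALG00000005657; chromosome 2, 4245112 to 4382203, plus strand) also binds urocortins and in chickens is known for mediating the thyrotropin-releasing action of CRH. It ranged from 9.14 to 22.0 CPM over all birds, with group means at 24 °C of 13.7 ± 3.09 CPM on the basal diet and 15.8 ± 4.00 CPM with L-citrulline. At 35 °C the means were 14.8 ± 2.46 CPM on the basal diet and 14.1 ± 2.42 CPM with L-citrulline. The groups overlapped throughout. Its fitted log2 fold changes in the single-factor comparisons lay between -0.17 ± 0.16 (SE) for heat on L-citrulline and 0.21 ± 0.16 (SE) for L-citrulline at 24 °C. Without bird 4 of the L-citrulline 24 °C group these were -0.05 and 0.09, and without all 4 libraries that stood apart -0.31 and 0.25.

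AVPR1A (ENSGALG00000040567; chromosome 1, 33419044 to 33421641, minus strand) encodes the V1a-type receptor for vasotocin, which in mammals is found in brain, liver and vessel walls. It had 4.00, 4.12, 4.76, 4.04, 4.29 and 4.27 CPM on the basal diet at 24 °C. Their coefficient of variation was 6.54%, less than counting noise alone gives on average at 55 to 63 reads per library. With L-citrulline at 24 °C it had 6.40, 3.89, 6.15, 7.03, 2.99 and 5.86 CPM. At 35 °C it had 5.11, 4.497, 5.79, 3.63, 7.27 and 5.42 CPM on the basal diet and 2.87, 2.19, 4.00, 2.83, 5.67 and 2.02 CPM with L-citrulline. The L-citrulline 35 °C group had the lowest mean, 3.26 ± 1.37 CPM against 4.25 ± 0.278 (basal, 24 °C), 5.39 ± 1.58 (L-citrulline, 24 °C) and 5.28 ± 1.23 CPM (basal, 35 °C), with 4 of its 6 birds under every bird of the other groups. Its birds 3 and 5 lay within the range of the others. These levels rest on only 28 to 96 reads per library.

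For AVPR1A, heat on the L-citrulline diet gave a log2 fold change of -0.72 ± 0.23 (SE; 95% interval -1.20 to -0.25; edgeR adjusted p = 0.545). L-citrulline at 35 °C gave -0.69 ± 0.23 (SE; edgeR adjusted p = 0.747). The corresponding effects in the other arm had the opposite sign, 0.32 ± 0.23 (SE) for heat on the basal diet (0.20 without bird 5 of the basal 35 °C group) and 0.35 ± 0.23 (SE) for L-citrulline at 24 °C. Without all 4 libraries that stood apart, AVPR1A gave -0.89 ± 0.25 (SE; edgeR adjusted p = 0.365) for heat on L-citrulline and -0.77 ± 0.23 (SE; edgeR adjusted p = 0.173) for L-citrulline at 35 °C. The interaction was -1.04 ± 0.32 (SE; 95% interval -1.70 to -0.38; edgeR adjusted p = 0.516). Two-sided exact permutation tests over all allocations of 6 against 6 birds gave p = 0.0303 for heat on L-citrulline and p = 0.0238 for L-citrulline at 35 °C. Over the 32 such tests of 8 members and 4 comparisons, 3 were under 0.05, the other being CRHR1 for heat on the basal diet (exact p = 0.0368). The share over all tested genes was not computed for this test, so the count has no background. The 2 AVPR1A comparisons share the L-citrulline 35 °C birds. In the authors' deposited tables AVPR1A had log2 fold changes of -0.73 (p = 0.00937) and -0.70 (p = 0.00702) for these comparisons, and all 8 members had an adjusted p of 1 in each.

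Markers of the dissected region moved with AVPR1A. The 5 measured paraventricular factors were SIM1, OTP, ARNT2, SIM2 and NHLH2, transcription factors listed for that nucleus. They are not a measure of CRH or vasotocin neurons alone. All 5 were higher for heat on the basal diet, with a median log2 fold change of 0.24. All 5 were lower for heat on L-citrulline, with a median of -0.36. The same 5 were all higher for L-citrulline at 24 °C (median 0.24) and all lower for L-citrulline at 35 °C (median -0.43). Median changes over all tested genes were under 0.01 in each comparison, and 0 of the 5 factors passed adjusted p in any. The summed level of the paraventricular factors ran at 24 °C from 158 to 194 CPM on the basal diet and from 167 to 244 CPM with L-citrulline, and at 35 °C from 154 to 219 CPM and from 148 to 207 CPM. The 17 hypothalamic region markers had 15 higher for heat on the basal diet, 3 for heat on L-citrulline, 13 for L-citrulline at 24 °C and 2 for L-citrulline at 35 °C. The shares of all tested genes that were higher were 50.1%, 52.4%, 52.4% and 51.8% in that order. With the joint score of both lists as a covariate, AVPR1A gave -0.49 ± 0.20 (SE; edgeR adjusted p = 0.915) for heat on L-citrulline, -0.42 ± 0.20 (SE; adjusted p = 0.910) for L-citrulline at 35 °C and -0.63 ± 0.28 (SE; adjusted p = 0.969) for the interaction. AVP for heat on L-citrulline went from -0.42 ± 0.48 (SE) to 0.04 ± 0.48 (SE) with that score. In the fit with no score, that AVP value was -0.22 without bird 3 of the L-citrulline 35 °C group, -0.09 without bird 6 of the L-citrulline 24 °C group and -0.82 ± 0.48 (SE) without the 3 libraries high in TTR. The 5 factors kept these directions without all 4 libraries that stood apart, with medians of 0.29, -0.71, 0.53 and -0.50 for heat on the basal diet, heat on L-citrulline, L-citrulline at 24 °C and L-citrulline at 35 °C. With all birds kept, 4 of the 7 kept markers of surrounding brain regions were higher in each of these 4 comparisons. Their medians were 0.37, 0.12, 0.59 and 0.04 in the same order. For L-citrulline at 24 °C, 3 of the 7 had an unadjusted edgeR p under 0.05, against 6.97% of all tested genes. For heat on L-citrulline 2 did (6.71% of all), and 0 for heat on the basal diet (3.69%) and L-citrulline at 35 °C (6.43%). The 10 listed surrounding-region genes summed to medians of 350 (basal) and 199.6 CPM (L-citrulline) at 24 °C, with overlapping ranges. At 35 °C these medians were 300.6 and 283 CPM. The part of the dissected region in these differences was not tested beyond this.

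**Figure D2:**
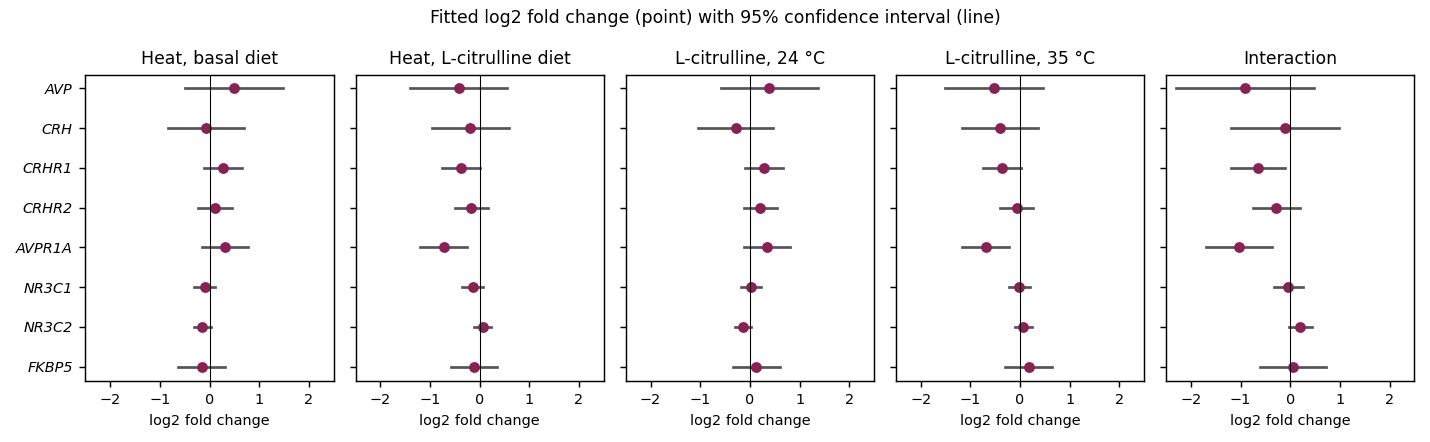
Fitted log2 fold change (point) and 95% confidence interval (line) of each stress axis gene in the 4 single-factor comparisons and the interaction, from edgeR over 24 libraries. The intervals of AVP and CRH are widest and those of NR3C1 and NR3C2 narrowest; only AVPR1A (heat on L-citrulline, L-citrulline at 35 °C and the interaction) and CRHR1 (interaction) have intervals clear of 0, none with an adjusted p under 0.05.

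The corticosteroid receptors were the steadiest genes of the axis. NR3C1 (ENSGALG00000032992; chromosome 13, 18099574 to 18198040, minus strand) lay between 10.03 and 15.3 CPM in all 24 birds, a coefficient of variation of 11.6%. Its means at 24 °C were 13.3 ± 0.960 CPM on the basal diet and 13.5 ± 1.96 CPM with L-citrulline, and at 35 °C they were 12.4 ± 1.45 and 12.2 ± 1.41 CPM. Heat averaged over diets gave -0.12 ± 0.07 (SE), with a 95% interval from -0.27 to 0.03 (edgeR adjusted p = 1.00 after rounding), and L-citrulline averaged over temperatures gave 0.00 ± 0.07 (SE).

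NR3C2 (ENSGALG00000010035; chromosome 4, 32119492 to 32321153, minus strand) lay between 61.5 and 88.4 CPM, a coefficient of variation of 10.1%. Its mean was highest on the basal diet at 24 °C, 77.1 ± 9.11 CPM, against 70.2 ± 7.66 CPM with L-citrulline at 24 °C. At 35 °C the means were 69.8 ± 3.44 CPM on the basal diet and 73.1 ± 7.35 CPM with L-citrulline. Heat on the basal diet gave -0.14 ± 0.08 (SE) and L-citrulline at 24 °C -0.14 ± 0.08 (SE), comparisons that share the basal 24 °C birds. All 95% intervals of NR3C1 and NR3C2 in the single-factor comparisons lay between -0.35 and 0.23, so changes beyond those bounds fell outside what these birds allow at that confidence.

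FKBP5 (ENSGALG00000042148; chromosome 26, 76711 to 94225, minus strand) had 113, 152, 113, 116, 119 and 127 CPM on the basal diet at 24 °C. With L-citrulline at 24 °C it had 76.5, 111, 98.1, 111, 188 and 223 CPM. At 35 °C it had 86.1, 84.3, 152, 113, 130 and 98.0 CPM on the basal diet and 94.3, 93.4, 154, 82.2, 135 and 186 CPM with L-citrulline. The L-citrulline groups spread over a wider range than the basal groups (SD 57.4 and 41.2 CPM against 15.0 and 26.4 CPM), a difference in spread that was not tested, and all groups overlapped. Heat gave -0.16 ± 0.23 (SE) on the basal diet and -0.11 ± 0.23 (SE) on L-citrulline, and L-citrulline gave 0.13 ± 0.23 (SE) at 24 °C and 0.17 ± 0.23 (SE) at 35 °C. Without bird 6 of the L-citrulline 24 °C group the value at 24 °C was -0.08 and that for heat on L-citrulline 0.09. Without bird 6 of the L-citrulline 35 °C group the value at 35 °C was 0.02 and that for heat on L-citrulline -0.27. The 12 birds with low W-linked counts had a median of 128 CPM of FKBP5, against 104 CPM in the 12 with high counts. In the same order, the medians were 2107 and 2918 CPM for AVP, 22.9 and 31.9 for CRH and 12.6 and 12.95 for CRHR1. They were 13.2 and 14.3 CPM for CRHR2, 4.19 and 4.39 for AVPR1A, 12.5 and 13.2 for NR3C1 and 73.7 and 71.6 for NR3C2. Differences between these sets were not tested.

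The other genes of the pathway were read from lists. Among peptides and binding proteins, 7 of 10 passed the low-count filter. Of these, 5 were higher for heat on the basal diet (median log2 fold change 0.38) and 1 for heat on L-citrulline (median -0.59). For L-citrulline, 5 were higher at 24 °C (median 0.11) and 1 at 35 °C (median -0.66). The shares of all tested genes that were higher were 50.1%, 52.4%, 52.4% and 51.8% in that order. None of the 7 passed adjusted p. The list member that went the other way was CRHBP, the secreted protein that binds CRH, with 1.16 ± 0.45 (SE; edgeR adjusted p = 0.662) for heat on L-citrulline and 0.99 ± 0.45 (SE; adjusted p = 0.747) for L-citrulline at 35 °C. POMC, the precursor of adrenocorticotropic hormone and of hypothalamic melanocortins, gave -1.41 ± 0.67 and -1.62 ± 0.66 (SE) in the same comparisons, at 3.60 CPM or less in every bird. PENK, the enkephalin precursor, gave -0.66 ± 0.25 (SE) for L-citrulline at 35 °C, and TRH, the thyrotropin-releasing hormone gene, -1.12 ± 0.49 (SE) for heat on L-citrulline. OXT, the gene of mesotocin (the avian oxytocin), had the list's smallest p for heat on the basal diet and for L-citrulline at 24 °C. In the latter it was the only 1 of the 7 with an unadjusted edgeR p under 0.05. At 24 °C it ranged from 106 to 448 CPM on the basal diet and from 104 to 889 CPM with L-citrulline. The urocortin gene UCN is listed with 0 counts in all 24 libraries.

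Of the receptor list, 4 of 7 genes passed the filter. AVPR1B, the pituitary vasopressin receptor of mammals, stayed at or under 0.524 CPM in every bird, and MC2R, the adrenal receptor for adrenocorticotropic hormone, at or under 0.0755 CPM. Of the 4 kept receptors, 3 were higher for heat on the basal diet (median log2 fold change 0.21), 0 for heat on L-citrulline (median -0.37), 4 for L-citrulline at 24 °C (median 0.15) and 1 for L-citrulline at 35 °C (median -0.46). Of all tested genes 50.1%, 52.4%, 52.4% and 51.8% were higher in these comparisons, and 0 of the 4 receptors passed adjusted p in any. The melanocortin receptor MC4R had -0.89 ± 0.30 (SE) for heat on L-citrulline and -0.86 ± 0.30 (SE) for L-citrulline at 35 °C, with edgeR adjusted p of 0.588 and 0.747. OPRK1, the kappa opioid receptor, had -0.51 ± 0.18 (SE) for L-citrulline at 35 °C. Without bird 3 of the L-citrulline 35 °C group, OPRK1 had -0.66 ± 0.17 (SE; edgeR adjusted p = 0.138) in that comparison. MC4R then had -0.99 ± 0.31 (SE; edgeR adjusted p = 0.185).

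Genes of peptide processing and secretion had medians from -0.13 to -0.01, with PCSK2, the prohormone convertase 2 gene, at -0.52 ± 0.21 (SE) for L-citrulline at 24 °C. The receptor chaperones and coactivators, 13 of 13 of them kept, had medians between -0.01 and 0.02, with 9, 6, 6 and 5 higher for heat on the basal diet, heat on L-citrulline, L-citrulline at 24 °C and L-citrulline at 35 °C. Among steroid metabolism genes 4 of 6 passed the filter, and CYP11A1, which makes pregnenolone from cholesterol, gave 0.70 ± 0.28 (SE) for L-citrulline at 24 °C. HSD11B2, which inactivates glucocorticoids, was not kept, at 0.617 CPM or less in every bird. Of 6 kept regulators of CRH transcription in mammals, 2, 4, 2 and 4 were higher in the same order of comparisons, FOS having 0.34 ± 0.17 (SE) for heat on L-citrulline. For these counts and those of the chaperones, 50.1%, 52.4%, 52.4% and 51.8% of all tested genes were higher in that order.

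The list of genes induced by corticosteroids in mammals had 13 kept members. Of them 2 were higher for heat on the basal diet (median log2 fold change -0.08) and 11 for heat on L-citrulline (0.06). For L-citrulline, 7 were higher at 24 °C (0.00) and 11 at 35 °C (0.14). The shares of all tested genes that were higher were 50.1%, 52.4%, 52.4% and 51.8% in that order. None of the 13 passed adjusted p. The smallest p was that of SESN1, a stress-inducible sestrin gene, with 0.26 ± 0.11 (SE; edgeR adjusted p = 0.747) for L-citrulline at 35 °C. FKBP5, counted apart from that list, had values of -0.16, -0.11, 0.13 and 0.17 in the 4 comparisons.

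How the genes varied together from bird to bird was read from group-centred log2(CPM + 0.5) over 24 birds, with 100000 within-group permutations. Of the 28 pairs of members, 0 passed after adjustment over the pairs. Those with the smallest permutation p of r were NR3C2 with FKBP5 (r = 0.46, rho = 0.40; permutation p = 0.0420 and 0.0713, adjusted p = 0.487 and 0.443) and AVPR1A with NR3C2 (r = -0.44, rho = -0.43; permutation p = 0.0399 and 0.0432). By rho, NR3C1 with FKBP5 was largest in size (r = -0.37, rho = -0.45; permutation p = 0.153 and 0.0541). AVP and CRH had r = -0.28 (rho = -0.29; permutation p = 0.242 and 0.212), and CRH and CRHR1 r = 0.33 (rho = 0.32; permutation p = 0.0731 and 0.124).

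The hormone genes AVP and CRH had opposite signs against the oligodendrocyte score, a difference that was not itself tested. AVP had r = 0.60 with the oligodendrocyte score (rho = 0.55; permutation p = 0.00371 and 0.00771; adjusted over 40 relations 0.0495 and 0.0771). CRH had r = -0.60 with the same score (rho = -0.62; permutation p = 0.00146 and 0.00222; adjusted 0.0292 and 0.0771). Without the 2 birds farthest from the median of the member, r was 0.47 for AVP and -0.58 for CRH. Without bird 3 of the L-citrulline 35 °C group it was 0.44 for AVP and -0.58 for CRH, and without all 4 libraries that stood apart 0.42 and -0.56. Within the birds of high and of low W-linked counts it was 0.65 and 0.58 for AVP, and -0.50 and -0.78 for CRH. CRHR1 had r = -0.68 with that score but rho = -0.37, and passed by neither (adjusted permutation p = 0.0695 and 0.467). Its r was -0.44 without the 2 farthest birds and -0.36 without bird 3 of the L-citrulline 35 °C group. AVPR1A had r = 0.72 with the paraventricular factors (rho = 0.65; permutation p = 0.00096 and 0.00419; adjusted 0.0292 and 0.0771), 0.59 without the 2 farthest birds, 0.59 without all 4 libraries that stood apart, and 0.76 and 0.63 within the W-linked sets. None of the 40 relations passed by both r and rho.

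**Figure D3:**
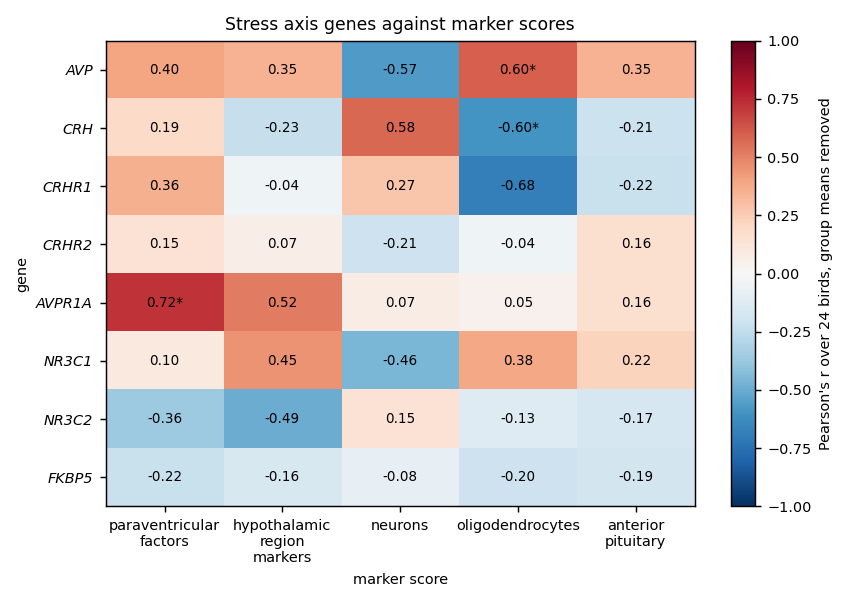
Pearson's r over 24 birds, with group means removed, between each stress axis gene (rows) and the mean z-score of each marker list (columns); an asterisk marks an adjusted permutation p under 0.05 over 40 relations. AVP (0.60) and CRH (-0.60) have opposite signs against oligodendrocyte markers, and AVPR1A reaches 0.72 against paraventricular factors.

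The lists were also set gene by gene against the 8 members, 496 relations in all, and the genes named from them were picked after their values were seen. By both r and rho, 19 relations passed an adjusted permutation p of 0.05. The share over all tested genes was not computed, so this count has no background. The highest r over all tested genes with a symbol was outside the lists for each of the 8 members, for example AVP (CG-1B, 0.87) and AVPR1A (VMA21, 0.83). Without all 4 libraries that stood apart, the values of r nearest to 0 in these 19 were 0.51 for AVPR1A with GAL and -0.52 for CRH with CRHBP. All 19 kept their sign, which is no independent check, as they were picked for passing in the same birds. AVP went with OXT, which encodes mesotocin, the avian form of oxytocin (r = 0.72, rho = 0.75; adjusted permutation p = 0.0273 and 0.0238), and with SIM1 (r = 0.74, rho = 0.74; adjusted permutation p = 0.0259 and 0.0238). Within the high and low W-linked sets r was 0.61 and 0.82 for OXT, and 0.67 and 0.81 for SIM1. OXT lies on the same strand as AVP, 2231 bases away, and as the genes are paralogs some reads could be shared. The ratio of AVP to OXT CPM was not fixed, running from 2.56 to 18.7 with a median of 10.2. AVP ran against PCSK2 (r = -0.78, rho = -0.80) and the receptor coactivator NCOA1 (r = -0.76, rho = -0.66).

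CRH was set against the 10 kept genes of peptide processing and secretion, of which 4 passed by both measures. They were CHGB (chromogranin B; r = 0.75, rho = 0.79), CPE (carboxypeptidase E; r = 0.74, rho = 0.75), SCG5 (secretogranin V; r = 0.69, rho = 0.69) and SCG2 (secretogranin II; r = 0.68, rho = 0.74), with adjusted permutation p between 0.0116 and 0.0440. The other 6 did not pass, with r of 0.57 for PCSK2, 0.55 for SCG3, 0.53 for CADPS2, 0.24 for CADPS, -0.03 for PAM and -0.19 for PCSK1. CRH ran against CRHBP (r = -0.61, rho = -0.65; adjusted permutation p = 0.0389 and 0.0352). Over all 62 kept companion genes, 5 passed with CRH by both measures, and the share over all tested genes was not computed. Genes outside the lists were closer to CRH, such as MAPK11 (r = 0.86) and SYT10 (r = 0.83). Neuron markers also went with CRH (r = 0.58, adjusted permutation p = 0.0775) and against AVP (r = -0.57, adjusted permutation p = 0.125), and their part in these relations was not tested.

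AVPR1A went with PCSK1, the prohormone convertase 1 gene (r = 0.77, rho = 0.77), PENK (r = 0.71, rho = 0.69), SIM1 (r = 0.70, rho = 0.68) and galanin, GAL (r = 0.63, rho = 0.68). UCN3, the urocortin 3 gene (r = 0.78), and OTP (r = 0.69) passed by r but not by rho. The AVPR1A relation with AVP itself had r = 0.44 (rho = 0.43; permutation p = 0.0797 and 0.0782).

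FKBP5 had r above 0 with 12 of the 13 corticosteroid-induced genes, and 4 of these passed by r. They were SESN1 (r = 0.81, rho = 0.81), CEBPD, a transcription factor of the acute response (r = 0.74, rho = 0.75), ZBTB16 (r = 0.74, rho = 0.73) and KLF9 (r = 0.70, rho = 0.69), both of these transcription factors being known targets of the glucocorticoid receptor in mammals. Adjusted permutation p was between 0.0116 and 0.0300 for r. The share of all tested genes with r above 0, or passing, was not computed, so these counts have no background. Genes outside the list were as close to FKBP5, such as MVB12B (r = 0.82) and SLC22A3 (r = 0.79). Within the high and low W-linked sets r was 0.71 and 0.81 for SESN1, 0.87 and 0.67 for ZBTB16, 0.40 and 0.68 for KLF9, and 0.31 and 0.92 for CEBPD. CEBPD was low, at 2.16 CPM or less. BCL6 ran the other way (r = -0.59, rho = -0.66), passing by rho only, while TSC22D3 and SGK1, further classical targets, had r of 0.19 and 0.33 and did not pass. NR3C1 went with BCL6 (r = 0.65, rho = 0.63) and NR3C2 with SESN1 (r = 0.61, rho = 0.60), both passing.

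**Figure D4:**
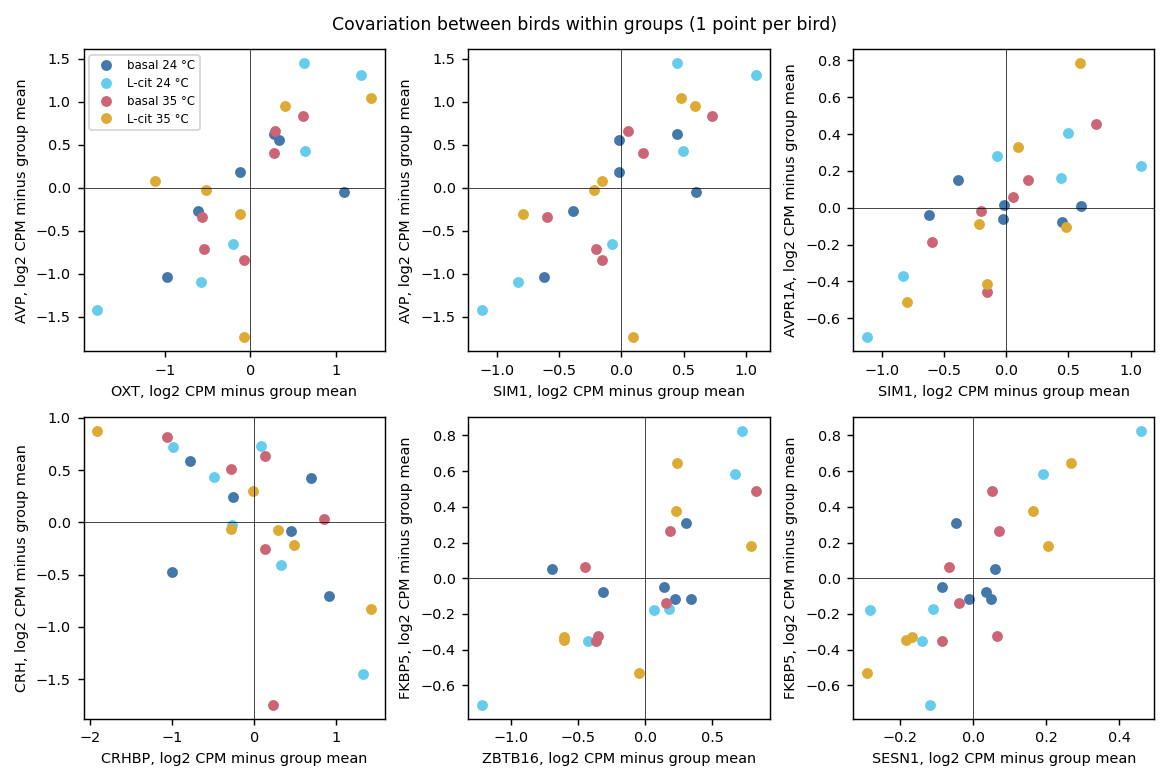
Group-centred log2(CPM + 0.5) of stress axis genes (vertical axes) against companion genes (horizontal axes), 1 point per bird coloured by group. The clouds rise for AVP against OXT (r = 0.72) and SIM1 (0.74), AVPR1A against SIM1 (0.70) and FKBP5 against ZBTB16 (0.74) and SESN1 (0.81), and fall for CRH against CRHBP (-0.61).

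Over all tested genes with a symbol, the patterns most like each member's were ranked by the same centred r over 24 birds, as a description. For AVP they were CG-1B (0.87), DERL1 (0.84), SORD (0.82), ARHGEF16 (0.81) and NDRG1 (0.81). For CRH they were MAPK11 (0.86), SYT10 (0.83), ZNF423 (0.83), NEU2 (0.83) and SEMA5A (0.81). CRHR1 was most like NOL4 (0.85), PRPS1L1 (0.85), GNA11 (0.84), SCN3A (0.84) and GLCCI1 (0.83), with rho between 0.58 and 0.74. CRHR2 had no gene above 0.68, reached by PCYOX1L, before HNRNPD (0.67), N4BP2L1 (0.64), CMTM6 (0.64) and PUS1 (0.64). AVPR1A was most like VMA21 (0.83), UCN3 (0.78), PCSK1 (0.77), SPC25 (0.74) and GPR149 (0.73). NR3C1 led with SLC17A9 (0.77), KMT2E (0.76), CASQ2 (0.73), POGLUT2 (0.72) and FRAS1 (0.71), and NR3C2 with H1FX (0.74), WIPF3 (0.74), MAN1C1 (0.74), SUN1 (0.72) and CDH7 (0.71). FKBP5 was most like MVB12B (0.82), SESN1 (0.81), SLC22A3 (0.79), IGSF21 (0.78) and FOXO6 (0.76).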

How the data were processed

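Total RNA of 24 hypothalami was sequenced. Per the file headers, the deposited table gives each gene a read count and an FPKM in every library, and FPKM made by the authors equals count over gene length and column total. Tools in the submitters' processing notes are TopHat, HISAT2, DESeq and HTSeq, and the build is GRCg6a. Tool versions, the use of strand and the handling of ambiguous reads are not given in the sources used. The log2 fold changes and p-values of the authors' deposited tables are only quoted.

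Counts were tested with edgeR 4.0.16 (filterByExpr, TMM, quasi-likelihood F test) in 1 fit of 4 group means over 24 libraries, with Benjamini-Hochberg adjustment over 13742 genes. DESeq2 1.42.0, limma 3.58.1 and other settings were alternatives, and the fit was tested on simulated data. Precision is limited by the 6 birds per group, 1 from each replicate of chickens, so p-values measure the spread between birds. Marker scores are mean z-scores of log2 CPM. The labels do not say that replicate numbers pair birds. Between groups, correlations of same-numbered birds ran from -0.37 to 0.41 with a mean of -0.01. That check cannot decide whether the numbers pair birds. Pairs of libraries within groups differed beyond counting noise, with chi-square per degree of freedom of at least 7.25. OXT has no symbol in the table and was matched by gene number.

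The rule for named genes takes the members, the 3 smallest p of each list in the single-factor comparisons (of which the text gives a selection) and the 5 most alike per member. Other genes, such as those of the gene-by-gene correlations, BCL6, UCN, AVPR1B, MC2R and HSD11B2, were named after their values were seen. Members and lists were chosen with earlier results of these data known.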

Additional observations from a re-analysis of the deposited data

Results flagged for a closer look

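A gap of a group's extreme bird to its nearest neighbour, relative to the group's range, exceeded Dixon's 95% critical value in 4 of the 32 combinations of member and group. The nominal rate, for normally distributed values, is about 1 in 20, whereas the values used were CPM without log transformation. The share over all tested genes was not computed, so this count has no background. CRHR1 gave 3 of them, each a highest bird: 18.5 CPM in bird 3 of the L-citrulline 24 °C group, 15.8 CPM in bird 2 of the basal 35 °C group and 19.2 CPM in bird 3 of the L-citrulline 35 °C group. FKBP5 gave the fourth, 152.1 CPM in bird 2 of the basal 24 °C group.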

How the results depend on the processing

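No member passed adjusted p 0.05 under any of the other settings (1936 values of 56 results; lowest adjusted p 0.138), and 89 values took the other sign, 12 of them with all birds kept. Depth limits AVPR1A most, at 28 to 96 reads per library. Over all genes, where the main test called 0, DESeq2 called 6 for heat on the L-citrulline diet, 8 for L-citrulline at 24 °C, 1 for L-citrulline at 35 °C and 2 for the interaction. For heat on the L-citrulline diet, limma voom called 1, and the oligodendrocyte score as a covariate, chosen after seeing the data, also 1, as did leaving out all 4 libraries that stood apart. Leaving out single birds gave 0 to 1 genes for heat on the L-citrulline diet and for L-citrulline at 24 °C.

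With the hypothalamic marker score as a covariate, the log2 fold change turned to 0.037 for AVP (heat on L-citrulline). For NR3C1 it turned to -0.0027 (L-citrulline at 24 °C), 0.052 (L-citrulline at 35 °C) and 0.055 (interaction), for NR3C2 to -0.018 (L-citrulline at 35 °C) and for FKBP5 to -0.071 (interaction). The CRH interaction turned to 0.12 by limma voom and 0.026 with the W-linked score. For L-citrulline averaged over temperatures, NR3C1 turned to -0.0038 by limma voom, -0.019 with the W-linked score and -0.027 with the oligodendrocyte score, which also turned CRHR1 to 0.037. Without the 3 libraries high in TTR, and without all 4 that stood apart, both choices made after seeing the data, the value turned to 0.058 and 0.059 for CRH (heat on the basal diet). For NR3C1 it turned to -0.059 and -0.059 (L-citrulline at 24 °C), 0.036 and 0.062 (interaction) and -0.041 and -0.028 (L-citrulline averaged). For AVP it turned to -0.18 and -0.077 (heat averaged) and 0.11 and 0.21 (L-citrulline averaged). Without all 4, NR3C1 turned to 0.0032 (L-citrulline at 35 °C) and FKBP5 to -0.055 (interaction). The causes of these turns were not tested.

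Leaving out 1 bird at a time moved the sign of the following log2 fold changes. For heat on the basal diet, CRH ran from -0.24 to 0.13. For heat on L-citrulline, FKBP5 ran from -0.27 to 0.085. For L-citrulline at 24 °C, NR3C1 ran from -0.020 to 0.091 and FKBP5 from -0.076 to 0.24. For L-citrulline at 35 °C, CRHR2 ran from -0.15 to 0.0019 and NR3C1 from -0.069 to 0.033. For the interaction, CRH ran from -0.34 to 0.054, NR3C1 from -0.11 to 0.013 and FKBP5 from -0.11 to 0.25. For heat averaged over diets, AVP ran from -0.080 to 0.20, CRHR1 from -0.18 to 0.0023 and CRHR2 from -0.075 to 0.030. For L-citrulline averaged over temperatures, AVP ran from -0.24 to 0.032, CRHR1 from -0.17 to 0.014 and NR3C1 from -0.024 to 0.037.

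With the replicate block, the AVPR1A log2 fold change was -0.77 for heat on L-citrulline, -0.72 for L-citrulline at 35 °C and -1.07 for the interaction. The replicate block called 0 genes in each comparison. For 4 of 24 birds, the mean correlation with birds of other groups was highest for those of their own number.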
